A study of Mus musculus with 4 samples.

Results

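Adipokines are hormones and other proteins that fat tissue secretes, and their messages were followed here in adipocyte progenitor cells, the cells from which fat cells form. The set held 8 genes: Adipoq, Lep, Retn, Cfd, Rarres2, Nampt, Apln and Agt. A probe belonged to it if its gene name on the array, or the current symbol of its accession, was one of these, which gave 9 probes of 55681 on the array, 1 per gene and 2 for Retn. Male FVB mice aged 4 weeks gave the cells, which flow cytometry had sorted out of subcutaneous fat and which were lysed straight away, and each RNA was hybridised to 1 single-colour Agilent array. The wild-type group had 2 samples and the Adamts1 transgenic group another 2 (Adamts1 is a secreted protease of the matrix), and no sample received a treatment. Which promoter drives the transgene, and in which cells, is not in the labels, nor whether the samples of a group came from separate animals. The p-values below therefore measure the spread between these samples.

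Mature fat cells release adiponectin, leptin, resistin and adipsin into the blood, where they act on appetite, insulin sensitivity and complement. Progenitor cells make little of these until they differentiate, and Adipoq and Cfd are switched on by the adipogenic factors PPARgamma and C/EBPalpha. Chemerin, angiotensinogen, apelin and the NAD enzyme NAMPT are also made by other cells of fat tissue, including stromal and vascular cells.

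On these arrays no member passed the test between the genotypes, at an adjusted p under 0.05 in limma over all 24518 features tested. The largest differences were those of Cfd (4.75-fold), Adipoq (2.97-fold) and Retn (2.25-fold), each with a higher mean in the transgenic samples, with adjusted p-values of 0.0788, 0.0687 and 0.118. Rarres2, Nampt, Apln and Agt had differences between -0.19 and 0.13 on the log2 scale, and Lep was not measured above background on any array. Of all features, 1.73% were called, 0.967% as higher and 0.759% as lower in the transgenic samples, against 0 of the 7 members tested. At an unadjusted p under 0.05 there were 3 members, Adipoq, Retn and Cfd, where 19.0% of all features passed. Retn was above background on 1 of 2 wild-type arrays and could be tested only through the transgenic arrays, where it was brighter, so its place in this count and its fold rest on that filter. The groups did not overlap for 4 members, these 3 and Rarres2, and 53.1% of all features showed the same, so that this count by itself was close to the background.

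The wild-type arrays differed from each other more than the transgenic arrays did. The 75th percentile of the spot signal was 239 and 333 on wild-type arrays 1 and 2, against 354 and 350 on the transgenic arrays, and 47.0% to 57.0% of the spots on an array were well above background, the lowest on wild-type array 1. Levels are given below as normalised log2 signal, where 0 is the array's 75th percentile and each unit is a doubling, and they are not compared between genes, because probes differ in brightness. A difference is the transgenic mean minus the wild-type mean, with its standard error (SE), and the median SE over all features was 0.18. The median difference of all features was -0.02.

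**Figure D1:**
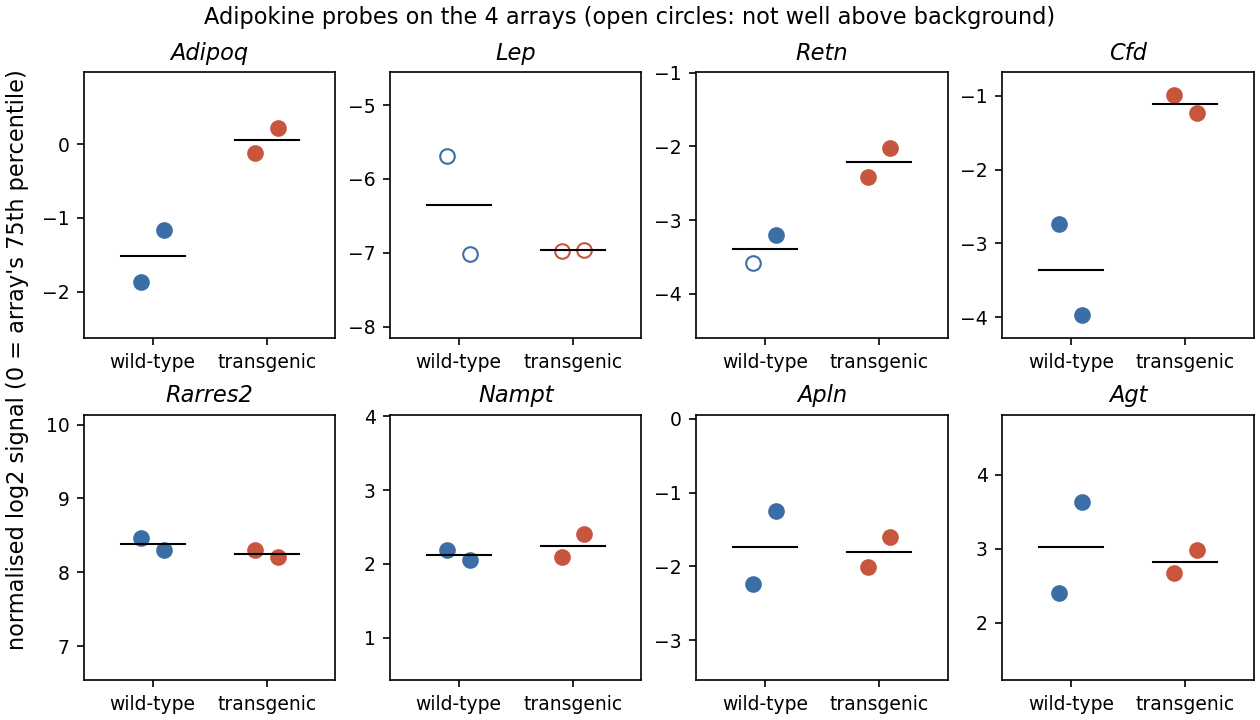
Normalised log2 signal of the 8 adipokine genes (vertical axes, 0 is the array's 75th percentile, each panel with its own range) on the 2 wild-type and 2 transgenic arrays; points are arrays, lines are group means and open circles are spots not well above background. The transgenic points lie above the wild-type points for Adipoq, Retn and Cfd, the wild-type points lie far apart for Apln and Agt, and all Lep points are open.

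The array reads the adipokine messages with probes of 60 bases, and 3 of them are shown, each with a reading frame free of stop codons. They are the single Adipoq probe (mm9 chr16:23157576-23157635), the second Retn probe (mm9 chr8:3657312-3657371), which differs from the first in its result, and the Agt probe (mm9 chr8:127083142-127083201), whose wild-type values lie far apart. Each is given 5′ to 3′ as deposited.
Adipoq probe: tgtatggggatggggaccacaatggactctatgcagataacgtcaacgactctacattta
Retn second probe: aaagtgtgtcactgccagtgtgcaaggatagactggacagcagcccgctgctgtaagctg
Agt probe: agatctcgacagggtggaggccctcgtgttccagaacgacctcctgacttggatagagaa

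Since Adipoq, Retn and Cfd had the largest differences and Lep had no measured signal, the 250 bases before the annotated start of each are shown, from RefSeq on GRCm38.p6. They are Adipoq (chr16:23146286-23146535, plus strand), Retn (chr8:3655520-3655769, plus strand), Cfd (chr10:79890603-79890852, plus strand) and Lep (chr6:29059971-29060220, plus strand). Capitals mark matches to the motifs searched on both strands.
Adipoq upstream: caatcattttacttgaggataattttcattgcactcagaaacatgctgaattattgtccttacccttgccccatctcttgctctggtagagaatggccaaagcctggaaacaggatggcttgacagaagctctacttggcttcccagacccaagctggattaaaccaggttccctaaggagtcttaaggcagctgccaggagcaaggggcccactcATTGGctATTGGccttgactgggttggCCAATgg
Retn upstream: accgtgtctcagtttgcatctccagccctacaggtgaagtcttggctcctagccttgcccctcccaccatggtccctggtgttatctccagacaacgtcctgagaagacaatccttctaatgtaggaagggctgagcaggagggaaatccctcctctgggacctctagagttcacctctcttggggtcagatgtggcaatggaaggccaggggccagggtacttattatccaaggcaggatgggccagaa
Cfd upstream: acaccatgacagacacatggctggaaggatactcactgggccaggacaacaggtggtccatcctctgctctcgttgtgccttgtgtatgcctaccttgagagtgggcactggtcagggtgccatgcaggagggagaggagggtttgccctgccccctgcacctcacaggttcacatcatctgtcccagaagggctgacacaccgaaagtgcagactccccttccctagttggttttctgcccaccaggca
Lep upstream: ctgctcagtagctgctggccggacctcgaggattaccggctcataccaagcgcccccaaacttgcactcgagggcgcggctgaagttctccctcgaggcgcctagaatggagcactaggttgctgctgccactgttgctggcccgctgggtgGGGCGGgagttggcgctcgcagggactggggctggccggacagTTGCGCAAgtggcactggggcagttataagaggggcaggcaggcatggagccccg

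The motifs were the CCAAT box (CCAAT), the TATA box (TATAAA), the GC box (GGGCGG), the C/EBP palindrome (TTGCGCAA) and the nuclear receptor half-site (AGGTCA), none of which contains another. A window was found for 7 of the 8 members. The Adipoq window held 3 CCAAT boxes, 2 of them on the minus strand, and 33.8% of the 32851 windows of this length held at least 1. The Lep window held the C/EBP palindrome, found in 0.164% of all windows, and a GC box, found in 32.7%. The Retn and Cfd windows held none of the 5 motifs, so the 3 members with the largest differences shared none of them. Of the others, Agt held a TATA box (12.4% of all windows), Apln a GC box, and Nampt 5 GC boxes and a nuclear receptor half-site (14.0% of all windows). These matches are descriptions of the letters in the windows and not measured binding.

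Adipoq encodes adiponectin, the hormone that mature fat cells secrete in the greatest amount and that acts through AdipoR1 and AdipoR2 on liver and muscle. Its normalised log2 signal was -1.88 and -1.17 on wild-type arrays 1 and 2, and -0.12 and 0.22 on transgenic arrays 1 and 2. Both transgenic arrays were above both wild-type arrays, and the gap between the wild-type arrays was 0.71, wider than in most genes: 8.26% of the 20162 features above background on all 4 arrays had a wider one. The difference was 1.57 ± 0.28 (SE, n = 2 per group), a 2.97-fold higher mean with a 95% interval of 1.83 to 4.82, and it did not pass the test (adjusted p = 0.0687, limma). Over the alternative settings and omissions of 1 array the difference lay between 1.07 and 1.93. The adjusted p lay between 0.0163 and 0.153 (limma) where no array was left out. There it passed with the normexp background correction (adjusted p = 0.0264), with no filter on signal (0.0238) and with the replicate number as a block (0.0163). The difference was 1.93 without wild-type array 2, a fit into which the wild-type spread does not enter.

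Cfd encodes adipsin, the serine protease also called complement factor D, which cleaves factor B and so starts the alternative complement pathway. Its normalised log2 signal, measured at mm9 chr10:79355302-79355361, was -2.74 and -3.98 on wild-type arrays 1 and 2, and -0.99 and -1.24 on the transgenic arrays. The groups did not overlap, and wild-type array 2 was the lowest, the reverse of the order in Adipoq. The difference was 2.25 ± 0.43 (SE, n = 2 per group), or 4.75-fold, with a 95% interval on the log2 scale of 1.17 to 3.33 and an adjusted p of 0.0788 in limma. The wild-type gap of 1.23 was exceeded by 2.25% of features. The difference was 2.86 without wild-type array 1 and 1.63 without array 2, fits into which the wild-type spread does not enter. With all 4 arrays it passed with the replicate block (adjusted p = 0.0247, limma), with no filter (0.0350) and with normexp and quantile normalisation (0.0398). The range over all settings and omissions was 1.17 to 2.86, with adjusted p-values of 0.0247 to 0.165 where no array was left out.

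Retn encodes resistin, a cysteine-rich hormone that in mice comes mainly from fat cells and opposes insulin action. On its brighter probe (mm9 chr8:3659757-3659816) the normalised log2 signal was -3.58 and -3.20 on the wild-type arrays, and -2.42 and -2.02 on the transgenic arrays. The groups did not overlap, but the spot on wild-type array 1 was not well above background, so that the gene entered the test through the transgenic arrays alone. The difference was 1.17 ± 0.27 (SE, n = 2 per group), or 2.25-fold (95% interval 1.40 to 3.62), with an adjusted p of 0.118 in limma. It was 0.33 under the normexp correction and 1.36 without wild-type array 2, and it passed in no setting that kept every array. On the second probe, printed above, the values were -4.36 and -3.06 on the wild-type arrays and -3.11 and -2.52 on the transgenic arrays. There the groups overlapped, since transgenic array 1 lay just under wild-type array 2, and the difference was 0.90 (adjusted p = 0.379 in a fit over probes).

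Lep encodes leptin, the hormone that reports the fat stores to the hypothalamus and that enlarged fat cells make in quantity. Its probe (mm9 chr6:29023234-29023293) was printed in 10 spots, and none of the 4 arrays had it well above background. The mean processed signal was 4.64 and 2.57 on the wild-type arrays and 2.82 and 2.80 on the transgenic arrays, a range in which order has no meaning. No fold or test is given, and a leptin message below the reach of the array remains possible in either group.

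**Figure D2:**
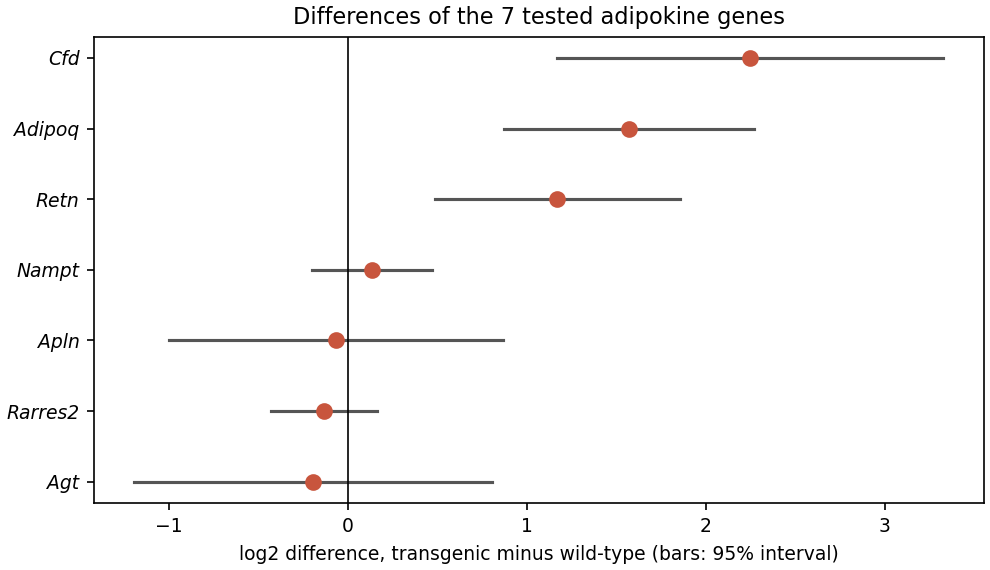
Log2 difference (horizontal axis, transgenic minus wild-type mean) of the 7 tested adipokine genes, with points for estimates and bars for 95% intervals from limma before adjustment for multiple testing. The intervals of Cfd, Adipoq and Retn lie above 0 and those of the other 4 span it.

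The other 4 members, made in fat by stromal and vascular cells as well, showed no difference beyond their spread. Rarres2 encodes chemerin, which attracts immune cells and promotes adipogenesis through the receptor CMKLR1. The deposited coordinates of its probe (mm9 chr6:48519775-48519969) span more than its 60 bases, for a reason that the files do not give. Its log2 signal was 8.47 and 8.31 on the wild-type arrays and 8.30 and 8.20 on the transgenic arrays, and no spot was saturated. The groups were separated by less than the gap within either of them, and the difference was -0.14 ± 0.12 (SE, n = 2 per group; adjusted p = 0.573, limma). Its 95% interval in fold was 0.741 to 1.12, and its sign turned under quantile normalisation, to 0.072.

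Nampt encodes nicotinamide phosphoribosyltransferase, also known as visfatin, the rate-limiting enzyme of NAD salvage that fat cells release as well. On the array (mm9 chr12:33535475-33535534) the wild-type arrays read 2.18 and 2.05 and the transgenic arrays 2.10 and 2.40. The groups overlapped, and the difference was 0.13 ± 0.13 (SE, n = 2 per group; adjusted p = 0.624, limma), with a 95% interval in fold of 0.869 to 1.38.

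Apln encodes apelin, a peptide that acts on blood vessels through the receptor APLNR. Its values at mm9 chrX:45378593-45378652 were -2.24 and -1.25 on the wild-type arrays and -2.01 and -1.61 on the transgenic arrays. Both transgenic values lay between the wild-type values. The difference was -0.07 ± 0.37 (SE, n = 2 per group; adjusted p = 0.941, limma), and the 95% interval in fold was 0.50 to 1.82. The wild-type arrays were 0.99 apart and the transgenic arrays 0.40 apart.

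Agt encodes angiotensinogen, the substrate from which renin and ACE make angiotensin II, and fat is a main source of it after the liver. The probe printed above read 2.40 and 3.64 on wild-type arrays 1 and 2, and 2.67 and 2.98 on the transgenic arrays. Again both transgenic values fell inside the wild-type range, whose gap of 1.23 was exceeded by 2.24% of features, while the transgenic arrays were 0.30 apart. The difference was -0.19 ± 0.40 (SE, n = 2 per group; adjusted p = 0.824, limma; 95% interval in fold 0.437 to 1.75). Leaving out wild-type array 1 moved it to -0.81 and leaving out array 2 moved it to 0.42, neither of which passed.

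The 7 tested genes thus did not share 1 order over the arrays. In the wild-type pair, array 1 was the lower for Adipoq, Retn, Apln and Agt and the higher for Cfd, Rarres2 and Nampt. The genes with the most similar pattern to each member, by distance between centred log2 values over the 4 arrays among 12228 other named genes above background on all of them, were sought for the 6 members that met that condition. For Adipoq they were Cxcl5 (distance 0.140), Car3 (0.177) and Septin4 (0.185), with differences of 1.55, 1.73 and 1.46. Car3, a carbonic anhydrase abundant in fat cells, is among the adipocyte markers below, and of the 3 only Septin4 was called (adjusted p = 0.0458, limma). For Cfd they were Myo1g (0.254), Ptpn18 (0.395) and Vwf (0.432), with differences of 2.29, 2.09 and 2.20. The first is a myosin of blood cells and the last a marker of endothelium. Myo1g and Ptpn18 were called (adjusted p = 0.0458 and 0.0488, limma) and Vwf was not. Because these genes were picked for their likeness to a member, their similar differences follow from the choice. For Agt the closest was Xdh (0.111), xanthine dehydrogenase, at 2.38, 3.65, 2.62 and 3.07 on wild-type arrays 1 and 2 and transgenic arrays 1 and 2. The closest genes to Rarres2 were Guk1, Tmem219 and Gpx1, those to Nampt were Acvr1b, Mettl4 and Tmem209, and those to Apln were Ikzf4, Serpina3f and Mbd1.

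**Figure D3:**
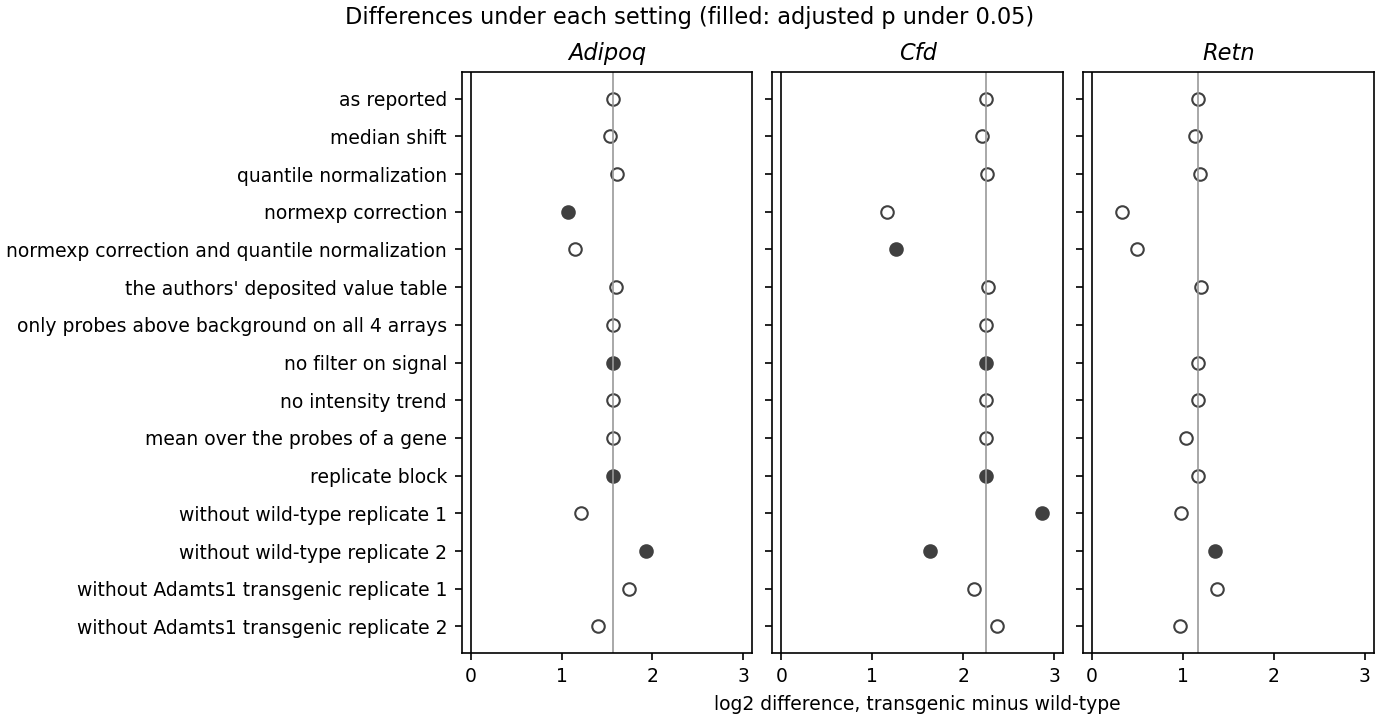
Log2 difference (horizontal axes, transgenic minus wild-type) of Adipoq, Cfd and Retn under each processing setting and each omission of 1 array (vertical axis); filled points had an adjusted p under 0.05, the vertical grey line marks the reported value and Retn has no point where probes had to be above background on all 4 arrays. All points lie above 0, and the filled points come from settings that differ between the genes.

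Receptors for the adipokines came next. None of the 11 tested of 16 receptor genes passed, and their median difference was 0.05 against -0.02 for all features. Adipor1 and Adipor2, the adiponectin receptors, differed by 0.09 ± 0.09 and 0.12 ± 0.10 (SE, n = 2 per group; adjusted p = 0.648 and 0.550, limma). The nearest to a call was Gpr1, a receptor for chemerin, at 3.60 and 3.03 on the wild-type arrays and 2.20 and 2.14 on the transgenic arrays. The groups did not overlap, and the difference was -1.15 ± 0.20 (adjusted p = 0.0644, limma). It passed under the median shift, the normexp correction, no filter and the replicate block (adjusted p = 0.0177 to 0.0432, limma). The difference was -0.86 without wild-type array 1 and -1.43 without array 2. CMKLR1, the main chemerin receptor, could not be tested, because its message was not above background on every array of either group. The brightest probe of Lepr, the leptin receptor, gave 2.41 and 1.27 for the wild-type arrays and 1.37 and 1.22 for the transgenic arrays, so that wild-type array 1 alone stood above the others. Its difference was -0.54 (adjusted p = 0.467, limma) and turned to 0.69 when its probes were averaged. Aplnr, the apelin receptor, was above background on both transgenic arrays and on neither wild-type array, so it could be tested only through the transgenic arrays. As reported the bound on its fold was 1.12, and it did not pass (adjusted p = 0.205, limma). Under the normexp correction its difference was only 0.0043 on the log2 scale.

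The partners of angiotensinogen, adipsin and NAMPT were followed in the same way. Of 7 tested renin-angiotensin enzymes of 9 none passed, with a median difference of -0.12. Ace, the converting enzyme, was at 4.94 and 5.15 on the wild-type arrays and 4.45 and 4.38 on the transgenic arrays, without overlap (-0.63 ± 0.10, adjusted p = 0.0606, limma). It passed with no filter (adjusted p = 0.0375, limma) and with the replicate block (0.0439). The difference was -0.73 without wild-type array 1 and -0.53 without array 2. Ren1, renin, ranged more widely within the wild-type pair, -1.63 and -3.15, than between the groups, with -3.20 and -2.96 on the transgenic arrays.

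In the alternative complement pathway, where adipsin acts, 1 of 5 genes fell and none rose, with a median difference of -0.26. Cfi, factor I, the protease that inactivates C3b, was at 0.45 and 0.75 on the wild-type arrays and -0.63 and -0.47 on the transgenic arrays. It was 2.22-fold lower, a difference of -1.15 ± 0.16 (SE, n = 2 per group; adjusted p = 0.0442, limma), and the call was lost under 3 other normalisations (adjusted p = 0.0596 to 0.0684) and without either transgenic array (0.128 and 0.0904). C3, the central component, differed by -0.48 (adjusted p = 0.157), Cfb, the substrate of adipsin, by -0.26 (0.249) and Cfp, properdin, by 0.29 (0.411). None of these 3 passed.

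Of 8 tested genes of 9 for NAD salvage and synthesis none passed (median difference -0.07). The smallest p was that of Qprt, which makes nicotinic acid mononucleotide from quinolinic acid, at -1.04 ± 0.18 (SE, n = 2 per group; adjusted p = 0.0660, limma). It passed under the normexp correction, no filter and the replicate block, and the difference was -1.18 without wild-type array 2. The 5 genes for folding and release of adiponectin gave no call either (median -0.15). They ranged from -0.43 for Hspa5, the chaperone BiP, to 0.28 for Ero1a, the oxidase that renews disulfide exchange, with Erp44, which retains adiponectin in the cell, at -0.15. Of 8 genes of leptin and insulin signalling none passed (median -0.08), and Jak2, the kinase bound to the leptin receptor, came nearest at 0.43 ± 0.09 (adjusted p = 0.102, limma).

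Among 37 other factors known to be secreted by fat, 29 were tested, 3 rose and 1 fell, with a median difference of 0.03. Retnla, which encodes the resistin-like molecule alpha made by fat tissue and by macrophages, was at 0.36 and -0.00096 on the wild-type arrays and 2.97 and 3.02 on the transgenic arrays. It rose 7.05-fold, a difference of 2.82 ± 0.14 (SE, n = 2 per group; adjusted p = 0.0128, limma), and had the largest change on this list. C1qtnf12, a relative of adiponectin also named adipolin, rose 1.95-fold, from 1.97 and 1.87 to 2.91 and 2.85 (adjusted p = 0.0250). Rbp4, the retinol carrier of the blood, rose 1.68-fold, from 3.77 and 3.66 to 4.54 and 4.39 (adjusted p = 0.0407). Ccn5, a matricellular factor of the Wnt-regulated CCN family, fell 2.13-fold, from 3.43 and 3.02 to 2.16 and 2.11 (adjusted p = 0.0449). The groups did not overlap for these 4 genes. Without either transgenic array the calls of C1qtnf12, Rbp4 and Ccn5 were lost, with adjusted p-values of 0.0668 to 0.167, and that of Retnla held. Sfrp5, Itln1, C1qtnf9, the agouti gene, Serpina12 and Spp1 were not above background on any array.

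**Figure D4:**
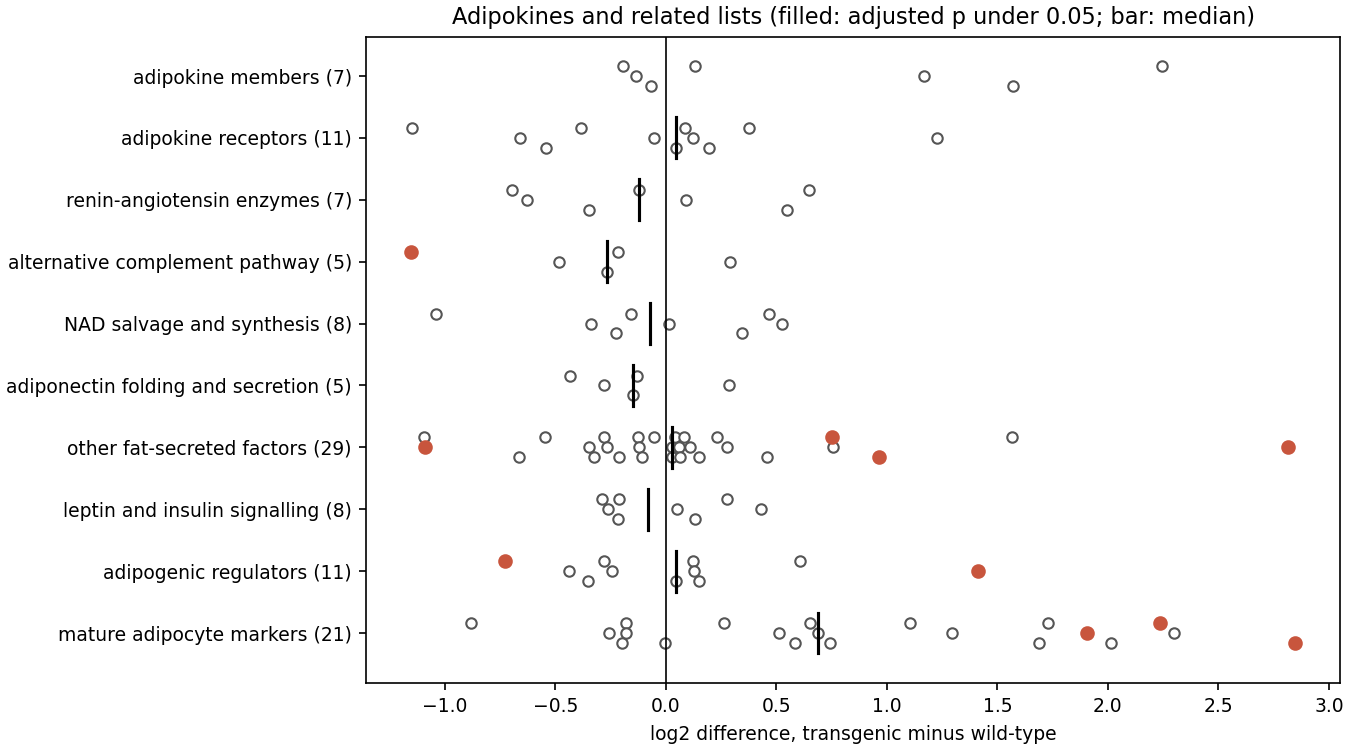
Log2 difference (horizontal axis, transgenic minus wild-type) of each tested gene, in rows for the adipokine genes, 8 related lists and the mature adipocyte markers, with the number tested in parentheses; filled points passed at an adjusted p under 0.05 and bars are list medians, drawn for the lists only. The adipokine row has no filled point. The adipocyte markers spread from below 0 to above 2.8 around a median of 0.69, with 5 of the 21 tested only through the transgenic arrays.

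Adipoq, Cfd and Retn are products of differentiated fat cells, so the genes of that state are given beside them. Of 11 adipogenic regulators, Pparg, the nuclear receptor that drives fat cell formation, rose 2.66-fold, from 1.98 and 1.96 on the wild-type arrays to 3.42 and 3.35 on the transgenic arrays (1.41 ± 0.08, SE, n = 2 per group; adjusted p = 0.0156, limma). Ebf2, a factor of committed preadipocytes, fell by 0.73 (adjusted p = 0.0315), and the other 9 did not pass. Of 22 mature adipocyte markers 21 were tested, 3 rose and none fell. The median difference was 0.69, but 5 of the 21 could be tested only through the transgenic arrays, where they were brighter. The median was 0.61 with the bounds of these 5 in place of their differences, except that Pck1 had no bound and stayed at 2.02. The 3 that rose were Cd36, a fatty acid transporter (7.20-fold), Fabp4, a fatty acid carrier (4.71-fold), and Slc2a4, the insulin-regulated glucose transporter (3.74-fold). Of the 21, 15 had a positive difference and 6 a negative one. The 6 were Cidea (-0.88), Scd1 (-0.26), Pnpla2 (-0.20), Dgat2 (-0.18), Fasn (-0.18) and Dgat1 (-0.003), and none of them passed. Without either transgenic array the calls of Ebf2 (adjusted p = 0.140 and 0.154, limma) and Slc2a4 (0.0578 and 0.0638) were lost, and those of Pparg, Cd36 and Fabp4 held. Plin1, which coats the lipid droplet, differed by 2.30 ± 0.38 and did not pass (adjusted p = 0.0591, limma). The summed level of the list, in multiples of the array's 75th percentile, was 310 to 314 on the wild-type arrays and 533 to 549 on the transgenic arrays, and no marker of it was below background on every array. Such a sum adds probes of different brightness, and most of this one was Lpl, lipoprotein lipase, which did not pass (adjusted p = 0.0707). Without Lpl it was 44.9 to 49.99 against 139 to 149.

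The cells were labelled as progenitors, and all 13 progenitor markers were above background on all 4 arrays. Of these, 2 were called lower, Cd24a and Pi16, and none higher, with a median difference of -0.27 over the list. Differences were negative for 9 of the 13 and positive for 4. Their summed level was 3748 to 4584 on the wild-type arrays and 3069 to 3121 on the transgenic arrays. Such a sum rests mostly on its brightest probes, and without the brightest marker it was 2862 to 3390 against 2194 to 2244.

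Markers of cells that the sort should leave out also differed. Of 14 tested macrophage markers 8 were called higher and none lower (median 1.86, or 1.63 with bounds), but 6 of the 14 could be tested only through the transgenic arrays, where they were brighter. Cd74, the invariant chain of antigen presentation, rose 9.24-fold and Pf4, a chemokine, 8.19-fold, both above background on all 4 arrays. C1qc, a complement subunit, rose at least 7.92-fold and Mrc1, the mannose receptor, at least 6.66-fold, each above background on 1 of 2 wild-type arrays. Without either transgenic array the calls of Cd74, C1qc and Pf4 held, and those of the other 5 were lost (adjusted p = 0.0513 to 0.276, limma). The summed macrophage level was 59.5 to 60.2 on the wild-type arrays and 66.3 to 69.6 on the transgenic arrays, most of it from Itgam, an integrin whose difference was -0.07. Without Itgam it was 10.8 to 13.0 against 22.0 to 22.4, and Cd163 was above background on no array.

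The other cell types had fewer calls. Of 7 tested lymphocyte markers 1 was called, Cd3d, at least 3.34-fold higher, but it was above background on neither wild-type array and 3 of the 7 could be tested only through the transgenic arrays. Its call was lost under the normexp correction (adjusted p = 0.253, limma), and Cd3e, another subunit of the same receptor complex and above background on all 4 arrays, differed by -1.01 (adjusted p = 0.162). The lymphocyte sum was 11.6 to 15.7 on the wild-type arrays and 10.0 to 10.8 on the transgenic arrays, or 5.54 to 6.08 against 6.51 to 6.93 without Cd3e, and Cd8a was above background on none. Of 10 endothelial markers 1 rose, Egfl7, by 4.21-fold, and Vwf differed by 2.20 (adjusted p = 0.0591, limma). The list's median difference was 1.34, or 0.82 with bounds, but 4 of the 10 could be tested only through the transgenic arrays. Differences were positive for 8 and negative for 2. The endothelial sum was 18.3 to 22.8 on the wild-type arrays and 18.2 to 19.2 on the transgenic arrays. Its brightest gene was Kdr, whose difference was -0.28, and without Kdr the sum was 9.59 to 10.6 against 10.2 to 10.6.

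Of 9 tested smooth muscle and pericyte markers 3 were called higher and 1 lower (sums 6.87 to 8.09 against 11.7 to 12.3). Acta2, smooth muscle actin, rose 6.14-fold and Notch3, a receptor of mural cells, 3.53-fold, and Rgs5, a pericyte regulator of G proteins, was at least 4.91-fold higher with neither wild-type array above background. Kcnj8, a potassium channel of pericytes, fell by 1.38 on the log2 scale. Of 5 tested Schwann cell markers 1 rose, Ngfr, a neurotrophin receptor, by 9.90-fold, and 1 fell, Mbp, a myelin protein, by 0.63. The sums were 8.22 to 8.65 against 11.6 to 12.8, with Gfap above background on none. The Mbp call was marginal (adjusted p = 0.0499, limma) and held in only 4 of the 10 alternatives that kept every array. Without either transgenic array the calls of Pi16, Egfl7, Cd3d, Rgs5, Kcnj8 and Mbp were lost (adjusted p = 0.0524 to 0.256, limma), and Ngfr was lost without transgenic array 2 (0.0557), while Cd24a, Acta2 and Notch3 held. The part of these cells in the values of Adipoq, Cfd, Retn and Retnla was not tested. In sorted cells measured together, more cells of a type and more RNA per cell cannot be told apart.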

How the data were processed

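The 4 arrays were read with Agilent Feature Extraction 10.7.3.1, and probes were placed on mm9, per the file headers. The deposited processed intensity is background-subtracted and detrended within each array, per the file headers. The authors' deposited value table of log2 values correlated at 0.9998 to 0.99996 with that signal, once shifted by the 75th percentile and centred per probe. Its column medians were 0.19, -0.02, -0.05 and 0.02, no source here says how it was made, and it served as an alternative.

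Control and outlier spots were dropped, log2 spots were averaged per probe, and the array's 75th percentile was subtracted. A gene entered by its brightest probe and was tested if this was well above background throughout at least 1 group. RefSeq accessions gave current symbols for 26582 probes. The genotypes were compared by limma 3.58.1 under R 4.3.3 (lmFit and eBayes, 2-sided, intensity trend, degrees of freedom 2 residual and 3.34 prior), adjusted by Benjamini-Hochberg over 24518 features, a procedure tested on simulated data. All arrays shared 1 slide and 1 scan day, and 2 against 2 arrays cannot pass an exact permutation test (smallest p = 0.333). A bound ("at least") sets the brighter group against the dim arrays' lowest signal well above background, or the probe's own where higher. Annotation on mm9 was not used here.

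The members, gene lists and tests were chosen with earlier results of these data known. Named were all 8 members and, per list, up to 4 called genes by smallest p, the smallest p where none was called, and the largest difference among genes measured on all 4 arrays (lists of up to 5 genes may be named whole). A few list genes that the rule takes are not reported here by name. Adipor1, Adipor2, Lepr, Aplnr, Cmklr1, Plin1, Pck1, Kdr, the 6 adipocyte markers with a negative difference and untested genes were added after their values were seen. Alternatives were other normalisations and background corrections, filters, the trend, averaging of probes, a replicate block and the omission of each array.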

Additional observations from a re-analysis of the deposited data

How the results depend on the processing

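The number of features called was 423 as reported. It was 695 with no filter on signal, 774 with the replicate block and 0 with no intensity trend, where 4124 features had an unadjusted p under 0.05 in limma. With 1 array left out it ranged from 90 (without transgenic array 1) to 3998 (without wild-type array 2), where the lone array of a group was assumed to vary like the others. Of the calls, 56.0% were higher in the transgenic samples as reported, against 49.7% under the median shift, 49.8% with the normexp correction, 64.3% under quantile normalisation and 65.2% with normexp added to it.

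The number of adipokine genes called was 0 as reported, 1 with the normexp correction, 1 with normexp and quantile normalisation, 2 with no filter, 2 with the replicate block, and 0 to 3 with 1 array left out. Adipoq, Cfd and Retn kept a positive difference in every setting and in every omission of 1 array. Rarres2 turned to 0.072 under quantile normalisation and 0.097 with normexp added. With 1 array left out, Nampt ranged from -0.020 to 0.29, Apln from -0.56 to 0.43 (0.13 without transgenic array 1) and Agt from -0.81 to 0.42. The same alternatives were run, after seeing the data, for most of the other named genes. Lepr turned to 0.69 with probes averaged and ranged from -1.11 (without wild-type array 2) to 0.030 (without wild-type array 1). Ren1 ranged from -1.45 to 0.068 over the same omissions. Xdh ranged from -0.80 (without wild-type array 1) to 0.47 (without wild-type array 2), and was 0.059 without transgenic array 1. Of 28 called list genes, 22 to 28 stayed called where they could be tested, except 0 with no intensity trend, 11 without transgenic array 1 and 10 without transgenic array 2. The causes were not tested.

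Samples with the same replicate number did not deviate together (correlation 0.0032) and the labels do not pair them, so the block is an alternative alone. Signal over background limited Lep on every array and Retn on wild-type array 1.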
